A study of Bos taurus with 13 samples.

Results

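Bovine mesenchymal stem cells were followed from the end of a short heat exposure to 66 h after their return to 37 °C. The comparison took 5 of the 13 sequenced libraries, chosen by the group in their titles. Of these, 3 came from cells harvested at the end of 6 h at 40.5 °C (6 h heat group, n = 3) and 2 from cells given the same 6 h at 40.5 °C and then 66 h at 37 °C (recovery group, n = 2). The change in cells that were never heated served as background, from 6 h at 37 °C (6 h control, n = 3) to 3 days at 37 °C (3-day control, n = 2). The 3 libraries of cells kept at 40.5 °C for 3 days (3-day heat group, n = 3) entered only the estimate of the spread and the levels given for reference. All were early-passage primary cultures from umbilical cord, in low-glucose medium with fetal bovine serum, and the exposures began on the day after seeding. The recovery time is that of the titles, whereas the series text gives 3 days. If the series text is right, the recovery cells were sampled later than the 3-day control, and the background does not match them in time. The labels do not say whether replicates came from separate animals, so p-values measure the spread between these cultures only.

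Mesenchymal stem cells are adherent stromal cells that divide in culture and can form bone, cartilage and fat cells. When an animal cell is heated, unfolded proteins draw chaperones away from the transcription factor HSF1, which then switches on genes for more chaperones, and many other genes are transcribed less. Once the heat ends, freed chaperones bind HSF1 again and the induced transcripts decay. Cultured stromal cells also change without any heat as they attach, divide, crowd and lay down matrix. Cells sampled at a later time can therefore differ from earlier ones for both reasons. The files do not pair the Ensembl identifiers with gene names. The genes are therefore described by groups and by 4 identifiers, their functions are not given, and the labelled cell type was not checked against its markers.

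The 5 libraries held between 14859428 and 35349823 reads, with the shallowest in the recovery group, and between 15270 and 15897 genes had at least 1 read. Of the 16595 genes in the table, 13262 (79.9%) had a normalised read count of at least 10 in at least 2 of these 5 libraries and were tested. Replicate 3 stood apart from replicates 1 and 2 in each of the 3 groups that have it. In the 6 h heat group its median absolute log2 difference from each was 0.217 and 0.218, against 0.092 between those 2. In the 6 h control it was 0.233 and 0.246 against 0.0886, and in the 3-day heat group 0.185 and 0.189 against 0.0784. The deviations of the third replicates from the mean of the other libraries correlated across genes between these groups, with r of 0.742, 0.533 and 0.486. No replicate 3 exists for the recovery group or the 3-day control, so values within replicates 1 and 2 are given beside the main pooled ones. A fall or rise in such bulk RNA cannot be told apart from a change in the share of the cells that carry the transcript.

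In the 66 h after heat, 6743 genes changed, which is 50.8% of those tested (limma, adjusted p of 0.05, on the log2(value + 1) scale). The rises and falls were nearly equal in number, with 3384 genes higher (25.5%) and 3359 lower (25.3%) in the recovery group than at the end of heat. Their median size was 0.69, and it was 0.79 for the rises and 0.62 for the falls. Values of the groups did not overlap in 9557 genes (72.1% of those tested), 4854 higher (36.6%) and 4703 lower (35.5%) after recovery, and 6738 of the called genes were among them. Of the genes not called, 2882 (21.7% of those tested) had a 95% interval of the change that lay wholly between -0.5 and 0.5. Within replicates 1 and 2 the count of changed genes was 8559. No single library moved it by more than 1.5 times, and it lay between 4587 and 6284 when 1 of the 5 was left out.

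The genes that rose took up a growing part of the transcriptome. Together they held 17.7%, 17.4% and 16.7% of the summed normalised counts in the 6 h heat libraries, and 26.8% and 26.9% in the recovery libraries. The genes that fell went the other way, from 24.8%, 25.2% and 25.6% to 15.2% and 15.3%. These genes were chosen on the same libraries, so the shares describe the size of the change and are no test of it. In the control libraries, which entered the choice only through the spread of each gene, the first set held between 19.3% and 20.6% at 6 h and 25.6% and 24.9% after 3 days. The second held between 21.5% and 22.5% at 6 h and 16.1% and 17.1% after 3 days. Both sets thus moved in the same direction in unheated cells, over a smaller range.

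The return was alike in pairs of libraries that share none. Between the change from heat to recovery in replicate 1 and that in replicate 2, r across the 13262 genes was 0.909 (Spearman's rho 0.903), and 89.1% of genes had the same sign. In the pairings that used replicate 3 of the heat group, r was between 0.744 and 0.759, and the same-sign share was between 81.7% and 82.7%. These correlations run across genes, which are not independent replicates, and they are given as descriptions.

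Distances between whole libraries placed the recovered cells beside the 3-day control. The distance used was the median absolute log2 difference over the tested genes. The recovery libraries lay 0.102 apart, and between 0.155 and 0.191 from the libraries of the 3-day control, which themselves lay 0.157 apart. Their distance to the 6 h control was between 0.313 and 0.398, and to the 3-day heat group between 0.312 and 0.392. To the heat libraries from which the return is measured it was the largest of these, between 0.398 and 0.479. The 3-day and 6 h controls lay between 0.246 and 0.376 apart. The upper ends of these ranges came from replicate 3 where a group has it. Within replicates 1 and 2 the recovery libraries lay between 0.398 and 0.427 from the heat libraries. They lay between 0.313 and 0.325 from the 6 h control and between 0.312 and 0.322 from the 3-day heat group. The controls then lay between 0.246 and 0.312 apart. The pairs share libraries, so the ranges are descriptions.

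**Figure D1:**
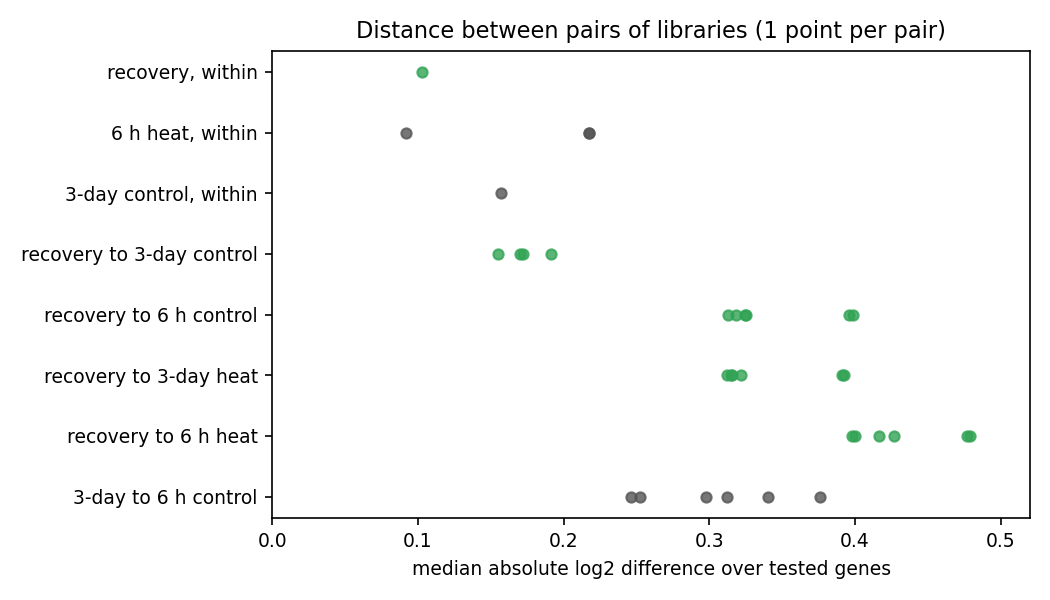
Median absolute log2 difference over the tested genes (x axis) for each pair of libraries, by kind of pair (y axis), with pairs that include a recovery library in green. The recovery libraries lie between 0.155 and 0.191 from the 3-day control and between 0.398 and 0.479 from the 6 h heat libraries. Without replicate 3 the latter range is 0.398 to 0.427.

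Large rises outnumbered large falls. Among the called genes, 1236 rose and 750 fell by at least 1 on the log2 scale, 315 rose and 99 fell by at least 2, and 86 rose and 24 fell by at least 3. The controls also had more large rises than large falls over their own 66 h, with 498 rises and 159 falls of at least 1. They had 112 rises and 8 falls of at least 2, so the imbalance was relatively stronger there than in the return. The imbalance in the return depended in part on scaling. After quantile normalization the return had 1075 rises and 991 falls of at least 1, and 255 rises and 149 falls of at least 2. The counts past 2 also depended on how low values were treated. They were 169 rises and 43 falls with a pseudocount of 8, and 200 rises and 49 falls among genes with a value of at least 50 in at least 2 of the 5 libraries. The largest changes were in less abundant genes, which were measured less precisely. The median standard error (SE) of the change was 0.47 in genes that rose and 0.48 in genes that fell by at least 2. It was 0.12 and 0.11 in genes that rose or fell by less than 1. The median normalised count was 60.1 in genes that rose by at least 2 and 21.7 in genes that fell by at least 2, against 867 and 784 in genes that rose or fell by less than 1.

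**Figure D2:**
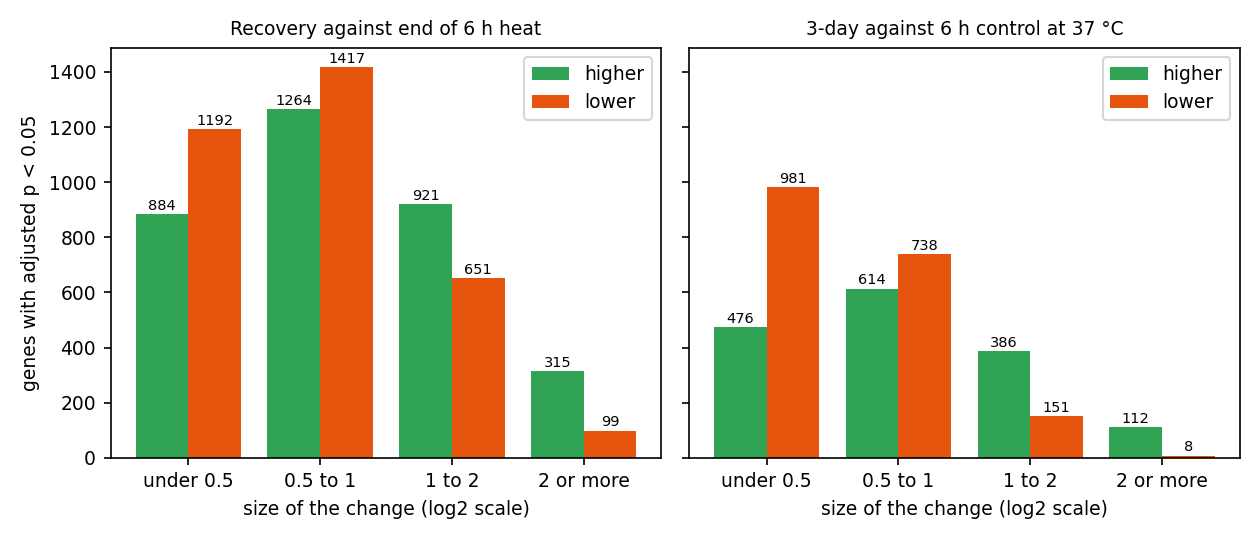
Number of genes past an adjusted p of 0.05 (y axis) by the size of the change on the log2 scale (x axis), higher in green and lower in orange. The return has 315 rises and 99 falls of 2 or more, and time at 37 °C has 112 and 8.

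The share of genes called as changed was lowest among the least abundant ones. When the tested genes were split into 4 equal bins by mean normalised count, 40% of the lowest bin changed, against 53.2%, 56.7% and 53.6% of the bins above it. The median size of a called change went from 1.34 in the lowest bin to 0.52 in the highest. Over all genes of a bin, called or not, it went from 0.69 to 0.31. Scarce genes were measured less precisely, so a change had to be larger to be called. The share and size of calls are therefore not directly comparable between bins. Rises made up 57.3% of the calls in the lowest bin and between 46% and 50.3% in the others. In the lowest bin 581 genes rose and 345 fell by at least 1, and in the highest 157 rose and 110 fell.

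Cells kept at 37 °C throughout also changed between 6 h and 3 days, but in fewer genes. In the controls 3466 genes (26.1%) passed the threshold, 1588 higher (12%) and 1878 lower (14.2%), with a median size of 0.57. Within replicates 1 and 2 this count was 5910, and without replicate 1 of the 3-day control it was 897. The changes of the heated and the unheated cells share no library, but the spread of each gene was estimated once for both. Across the 13262 genes they correlated with r = 0.73 (rho 0.67), and 74.8% had the same sign. In replicate 1 alone r was 0.714 and in replicate 2 alone 0.652. It went from 0.695 in the least abundant of the 4 bins to 0.779 in the most abundant. The spread of the changes over genes was wider in the return (SD 0.84) than in the controls (SD 0.59).

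**Figure D3:**
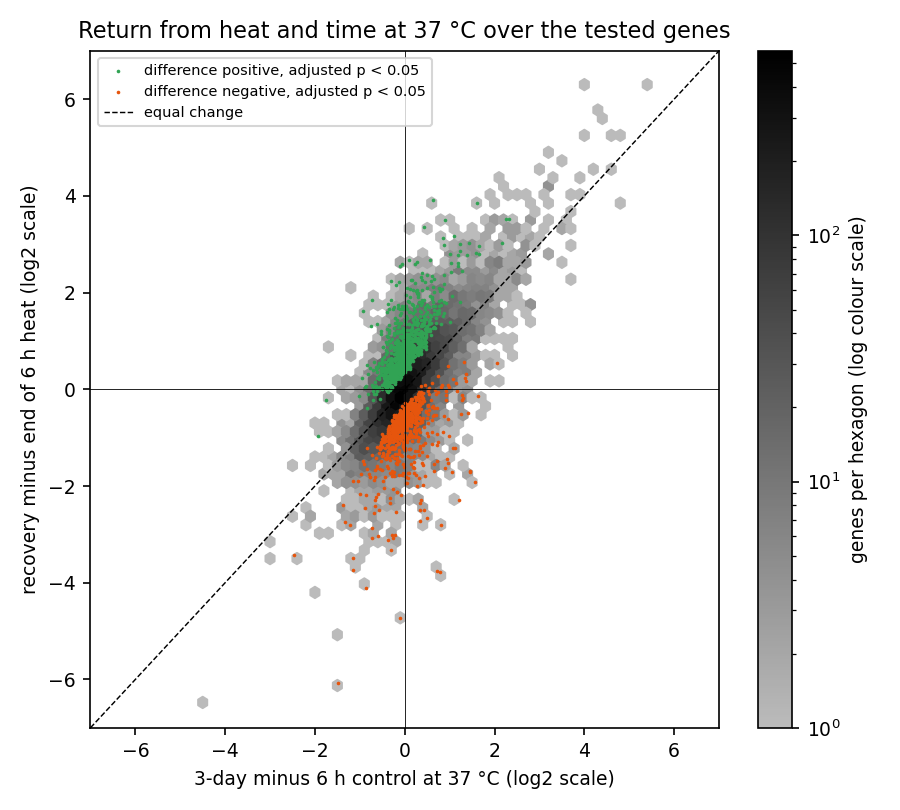
Change from the end of heat to recovery (y axis) against the change from 6 h to 3 days at 37 °C (x axis), both on the log2 scale, with genes as grey hexagons shaded by their number. Genes whose changes differ at an adjusted p of 0.05 are coloured, 903 with a positive difference in green and 642 with a negative difference in orange. The cloud extends along the line of equal change (r = 0.73), and the coloured genes lie mainly above and below the centre.

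Most genes that changed with time in the controls also changed during the return, and in the same direction. For reference, the return called 50.8% of all tested genes and the controls called 26.1%. Both comparisons called 2638 genes, which is 76.1% of those called in the controls and 39.1% of those called in the return. Of these, 2536 moved the same way (1195 up, 1341 down) and 102 moved in opposite ways. The share of the return's calls was not stable. It was 54.4% within replicates 1 and 2, 20.8% when only the groups compared were fitted, and 11.2% and 26.9% without replicates 1 and 2 of the 3-day control. Another 828 genes were called in the controls and not in the return, and 4105 in the return and not in the controls. A call in one comparison alone does not show that the changes differ, so the difference was tested for every gene.

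The return differed from the change of the controls in 1545 genes (11.6% of those tested), 903 with a positive (6.81%) and 642 with a negative difference (4.84%). Of the 6743 genes that changed in the return, 1398 (20.7%) were among them, 808 of the risers and 590 of the fallers. The median size of the difference was 0.76, and the return was the larger change in 1341 of the 1545. Within replicates 1 and 2 the count was 4090, and 1541 of the 1545 genes were among these with the same sign. With a term for replicate 3 it was 3132, and with the replicate number as a block 3211. The count rested on few libraries: it was 646 and 712 without replicates 2 and 1 of the recovery group, and 815 without replicate 2 of the 3-day control. The excess of positive differences (58.4%) was not seen after upper quartile scaling (49.2%), and it was 52.6% after quantile normalization. The difference equals the change left after recovery minus the 6 h effect of heat, so it does not separate a heat effect that was undone from one that appeared later.

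The called genes of the return fell into groups by these tests, and the size of each depended on few libraries. The first held 2297 genes (34.1% of the return's calls) that changed in the same direction in the controls with no difference called. The 1067 risers among them had a median change of 0.92 in the return and 0.79 in the controls, and the 1230 fallers had -0.64 and -0.53. Without replicate 1 of the 3-day control the group had 672 genes. Relative to the 6 h control, the risers lay at a median between -0.1 and -0.03 in the heat libraries, at 0.87 and 0.89 in the recovery libraries, and at 0.84 and 0.75 in those of the 3-day control. The median near 0 at the end of heat is favoured by the choice of genes with no called difference, since that difference contains the 6 h effect of heat. In the 3-day heat libraries, which entered the choice only through the spread, the risers were between 0.36 and 0.53. The fallers lay between -0.07 and 0.07 at the end of heat, at -0.64 and -0.62 after recovery and between -0.49 and -0.36 after 3 days of heat.

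A second group of 1057 genes (15.7%) changed in the return, was not called in the controls and differed between them. It held 612 genes that rose, with a median change of 0.8 in the return and -0.02 in the controls, and 445 that fell, with -0.79 and 0.002. The group had 1988 genes within replicates 1 and 2, 484 and 437 without replicates 1 and 2 of the recovery group, and 613 without replicate 2 of the 3-day control. Relative to the 6 h control, the risers lay between -0.71 and -0.62 in the heat libraries and at 0.08 and 0.11 after recovery, where the 3-day control libraries lay at 0.003 and -0.05. The fallers lay between 0.65 and 0.69 at the end of heat and at -0.1 and -0.12 after recovery. In this group the median gene was therefore away from the control level at the end of heat and close to it after recovery, which the choice of genes favours. In the 3-day heat libraries the risers were between -0.31 and -0.24 and the fallers between 0.38 and 0.44, so both kept the sign they had at 6 h of heat.

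Another 232 genes (3.44%) moved in the same direction in both comparisons but further in the return, 124 up and 108 down. This number was 1041 within replicates 1 and 2, 60 and 81 without replicates 1 and 2 of the 3-day control, and 115 and 107 without those of the recovery group. It was also 119 and 127 without replicates 1 and 2 of the 6 h control. Their median change was 1.42 in the return and 0.54 in the controls for the risers, and -1.19 and -0.45 for the fallers. Only 7 genes (0.104%) moved the same way but further in the controls. The 102 genes that moved in opposite ways all passed the test of the difference. That is no separate result, since called changes of opposite sign add up in the difference. The 68 that rose after heat had a median of 0.4 in the return and -0.36 in the controls, and the 34 that fell had -0.54 and 0.41. There were 366 such genes within replicates 1 and 2, but 16 when only the groups compared were fitted. Without replicates 1 and 2 of the 3-day control there were 23 and 48, and without those of the recovery group 63 and 62. The largest group, 3048 genes (45.2%), was called in the return and not in the controls with no difference called. It had 1919 genes within replicates 1 and 2, 5053 without replicate 1 of the 3-day control and 2027 without replicate 1 of the recovery group. Its 1509 risers had a median of 0.66 in the return and 0.23 in the controls, and its 1539 fallers -0.54 and -0.18. For this group the data do not say whether the changes differed: the median half-width of the 95% interval of a difference was 0.46 over all tested genes.

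**Figure D4:**
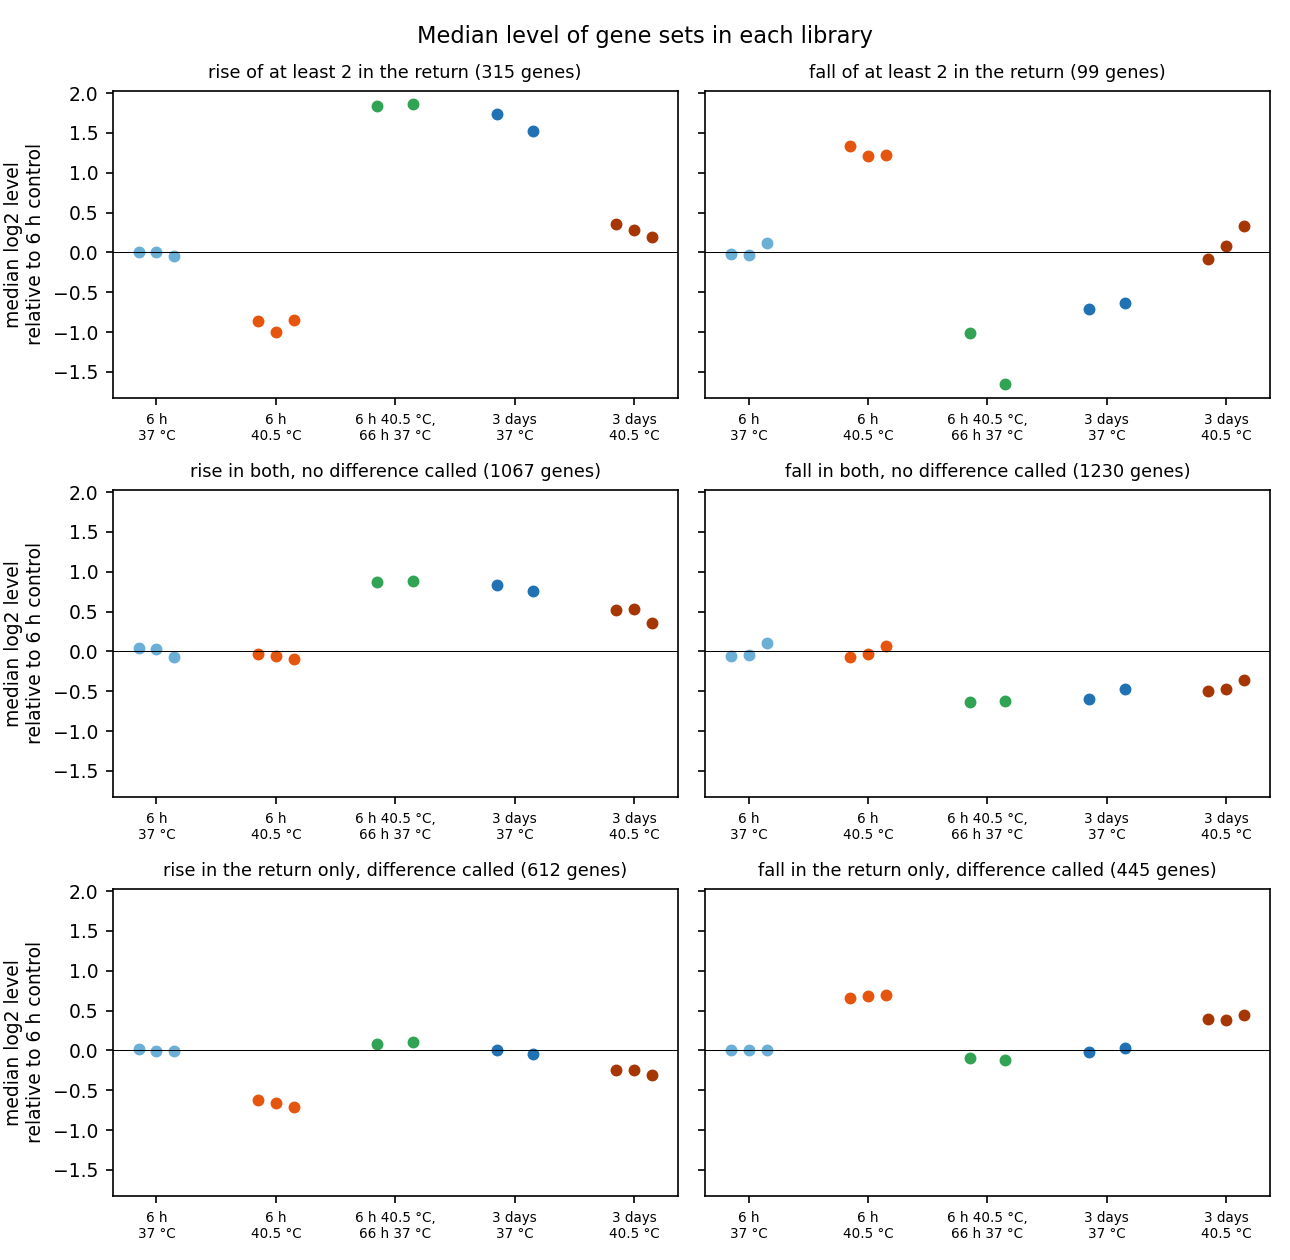
Median log2 level of 6 sets of genes relative to the mean of the 6 h control (y axis) in each of the 13 libraries (points) by group (x axis). Genes that rose in both comparisons lie near 0 at the end of heat and at 0.87 and 0.89 after recovery, and genes that rose in the return only lie between -0.71 and -0.62 at the end of heat and at 0.08 and 0.11 after recovery.

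Some genes changed in the controls but were not called in the return. For 131 of them the difference was called, a number that was 500 within replicates 1 and 2 and between 37 and 162 with 1 library left out. The 48 that rose in the controls had a median of 0.66 there and -0.1 in the return, and the 83 that fell had -0.45 and 0.1. A further 697 were called in the controls with no difference called, and 16 genes had only a called difference.

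Large rises and large falls differed in how much of their size the controls showed. The 315 genes that rose by at least 2 had a median of 2.54 in the return and 1.59 in the controls, where 55.2% of them were called in the same direction. The difference was called in 58 of them (18.4%). Among all genes called in the return the share was 20.7%, and among rises between 1 and 2 it was 27.4%. Over all tested genes the controls had 12% called higher and 14.2% called lower. The 99 genes that fell by at least 2 had a median of -2.53 in the return and only -0.66 in the controls, where 26.3% were called in the same direction. The difference was called in 45 of them (45.5%), against 26.7% of falls between 1 and 2. The share with a called difference was lower in the large rises than in the large falls under each alternative that was run. The gap was small within replicates 1 and 2 (45.8% and 56.4%) and with DESeq2 (25.5% and 31.4%). It was widest for the pseudocount of 8 (22.5% and 79.1%). The sets were chosen by their size in the return, which favours a larger median there than in the controls. The large fallers had lower counts than the large risers but a similar median SE of the change (0.48 against 0.47). Whether the choice weighs more on the fallers was not tested. The gene sets were not compared by a test.

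The levels behind these extreme sets differed between groups of libraries. Relative to the 6 h control, the median of the large risers was between -1 and -0.85 in the heat libraries, 1.84 and 1.86 in the recovery libraries and 1.74 and 1.52 in the 3-day control. The choice of genes favours a low level at the end of heat and a high one after recovery. For the large fallers it favours the reverse. The 3-day control entered the choice only through the spread, and the large risers were high there as well. After 3 days of heat they lay between 0.19 and 0.35. That was above the end of 6 h heat and below the recovery and 3-day control libraries. The median of the large fallers was between 1.21 and 1.33 in the heat libraries and -1.02 and -1.65 in the recovery libraries. The recovery replicates thus lay apart for these genes, whose counts are low. In the 3-day control it was -0.71 and -0.63, and after 3 days of heat it was between -0.08 and 0.33.

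The largest rise by the naming rule was in ENSBTAG00000007773. Its normalised count was 2.02, 0 and 11.4 in the 6 h heat libraries (13 reads in all) and 223 and 269 in the recovery libraries. The groups did not overlap, and the recovery mean of 246 ± 32.7 (SD, n = 2) was 55 times the heat mean of 4.47 ± 6.09 (SD, n = 3). The log2 change was 6.2 (SE 0.91, limma adjusted p 0.000255). The gene also rose in unheated cells, from 14.4, 3.27 and 25.2 at 6 h to 225 and 156 after 3 days, a log2 change of 3.97 (SE 0.91, limma adjusted p 0.0099). Without replicate 1 of the 3-day control that call was lost (3.71, limma adjusted p 0.0884). The difference of 2.23 (95% interval -0.6 to 5.06, limma adjusted p 0.305) did not pass the threshold. It passed within replicates 1 and 2 (2.61, limma adjusted p 0.022) and narrowly with array quality weights (limma adjusted p 0.0495). It did not pass with a term for replicate 3 (limma adjusted p 0.0637), the replicate block (limma adjusted p 0.0508), edgeR or DESeq2. With so few heat reads the sizes depended on the pseudocount. With 8 they were 4.45 in the return and 3.27 in the controls, and the difference was 1.18. After 3 days of heat the libraries had 43.2, 58.8 and 87.8.

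ENSBTAG00000018965 had the largest positive difference among the genes that rose. Its normalised count was 12.1, 6.29 and 10.3 at the end of heat and 162 and 147 after recovery. In unheated cells it was 27.7, 26.2 and 42.4 at 6 h and 63.3 and 38.5 after 3 days, and after 3 days of heat 38.9, 48.9 and 47.1. The recovery libraries were thus the highest of all 13 and the heat libraries the lowest. The log2 change was 3.92 in the return (SE 0.31, limma adjusted p 5.5e-06) and 0.64 in the controls (SE 0.31, limma adjusted p 0.153). The difference was 3.28 (SE 0.44, limma adjusted p 0.00123) and lay between 2.93 and 3.63 when single libraries were left out.

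The largest fall was in ENSBTAG00000020060. Its normalised count was 830, 1037 and 1496 at the end of heat and 7.53 and 16.5 after recovery (10 reads in each library). The heat mean of 1121 ± 341 (SD, n = 3) was 93.3 times the recovery mean of 12 ± 6.35 (SD, n = 2), and the log2 change was -6.48 (SE 0.77, limma adjusted p 6.7e-05). In unheated cells the gene stood at 154, 160 and 1248 at 6 h, with replicate 3 far above the other two, and at 11.3 and 15.4 after 3 days. The libraries of the controls did not overlap either, with a log2 change of -4.47 (SE 0.77, limma adjusted p 0.00283). The difference of -2.01 (SE 1.09, limma adjusted p 0.273) passed the threshold without replicate 3 of the 6 h control (-3, limma adjusted p 0.00959) and within replicates 1 and 2 (-2.77, limma adjusted p 0.000281). It also passed with a term for replicate 3 (limma adjusted p 0.0293), with the replicate number as a block (limma adjusted p 0.0338) and with array quality weights. On the recovered reads it was smaller and did not pass, with -1.45 in edgeR (edgeR adjusted p 0.7245) and -1.29 in DESeq2 (DESeq2 adjusted p 0.599). After 3 days of heat the levels were 948, 634 and 1756, near those at the end of 6 h of heat.

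ENSBTAG00000025441 had the largest negative difference among the genes that fell. It was an abundant transcript at the end of heat, at 55370, 51810 and 57120, and was at 1979 and 2146 after recovery. The heat mean of 54770 ± 2709 (SD, n = 3) was 26.6 times the recovery mean of 2062 ± 118 (SD, n = 2). Unheated cells had 3088, 3270 and 2776 at 6 h and 2457 and 3250 after 3 days, so the recovery libraries were below each control library. The log2 change was -4.73 in the return (SE 0.17, limma adjusted p 1.7e-08) and -0.1 in the controls (SE 0.17, limma adjusted p 0.683). The difference was -4.63 (SE 0.24, limma adjusted p 2.1e-06) and lay between -4.83 and -4.42 when single libraries were left out. After 3 days of heat the levels were 9776, 9594 and 14600, above every library kept at 37 °C and below the end of 6 h of heat.

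**Figure D5:**
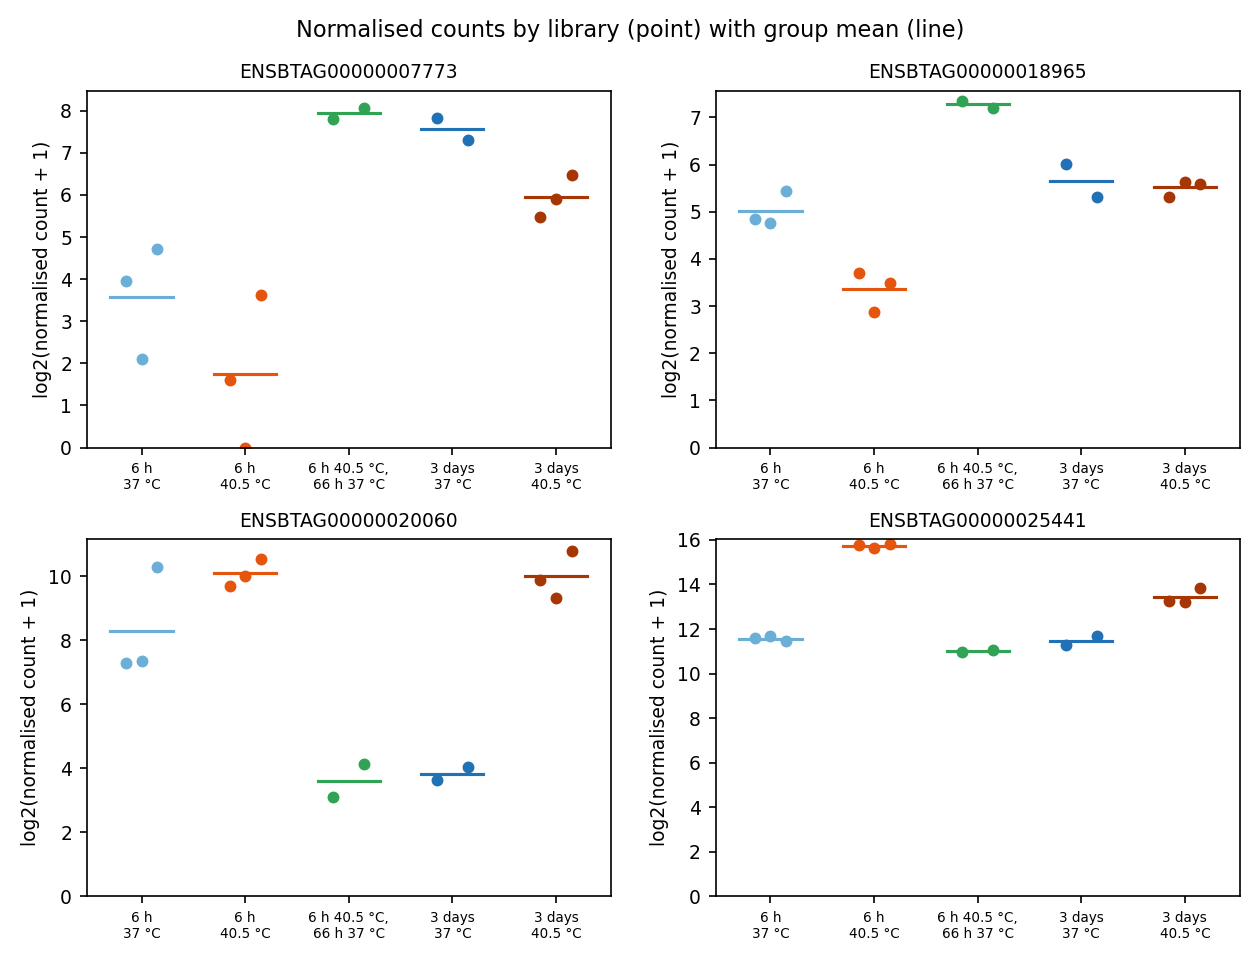
Normalised count of 4 genes on the log2(value + 1) scale (y axis) in each library (points), with the mean of the log2 values (lines), by group (x axis). ENSBTAG00000007773 and ENSBTAG00000020060 moved in the same direction in the 3-day control, and ENSBTAG00000018965 and ENSBTAG00000025441 have their extreme levels after recovery and at the end of heat.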

How the data were processed

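Polyadenylated RNA was sequenced from 13 bovine cultures. For each gene and library the authors deposited a DESeq-normalised signal, that is, a read count divided by a size factor of the library (the file name says DESeq normalized). The submitters' processing notes name cutadapt, STAR, HTSeq and DESeq, and the build ARS-UCD1.2. Strand setting, annotation and batches are not given in the sources used here. All values (100%, tolerance 0.01 reads) were whole multiples of the value of 1 read, so reads were recovered for count tests and for depth.

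Genes with a value of at least 10 in at least 2 of the 5 libraries were tested. Values were transformed as log2(value + 1), and group means over all 13 libraries were fitted with limma 3.58.1 in R 4.3.3 (empirical Bayes, mean-variance trend, 8 residual degrees of freedom). P-values were two-sided and Benjamini-Hochberg adjusted over the tested genes within each comparison, with a threshold of 0.05. The procedure was tested on simulated reads in which few genes changed and libraries were drawn independently. That setting lacks the deviation that the third replicates share, so it does not show how the procedure handles it. The alternatives included edgeR 4.0.16 and DESeq2 1.42.0 on the recovered reads. Thinning of reads to equal depth was chosen only after seeing the data.

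The comparison, the gene groups and the tests were chosen with earlier results of these data known. Lists of genes by symbol, cell type markers among them, could not be applied to Ensembl identifiers and were not used here. The rule for naming genes asked for a symbol. That condition was dropped, and 4 identifiers are given from it: the largest rise and the largest fall, and the largest positive and negative difference from the controls' change in the same direction as the return. The rule also asked for longer lists and for genes of opposite direction, which are not given. The largest rise and the largest fall had a mean of at least 50 in the higher group. The genes named by the difference had a mean of at least 50 in any of the 4 groups compared. None of the named genes had overlap between the heat and recovery libraries.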

Additional observations from a re-analysis of the deposited data

Results flagged for a closer look

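The change over 66 h differed between cells that had been heated for 6 h and cells that had not. By limma's test of the difference itself, 1545 genes passed an adjusted p of 0.05. Of the 4 identifiers named, ENSBTAG00000018965 (log2 difference 3.28, a larger rise in the return) and ENSBTAG00000025441 (log2 difference -4.63, a larger fall in the return) were among them. The mean of ENSBTAG00000025441 was 54770 at the end of heat, 2062 after recovery and 2853 in the 3-day control. Its difference thus lay mostly in the level at the end of heat. The cause was not tested.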

How the results depend on the processing

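The count of genes changed in the return stayed within 1.5 times of 6743 under each alternative run, from 4579 at an adjusted p of 0.01 to 8859 with array quality weights. It was 6700 with edgeR and 6750 with DESeq2. The correlation with the change of the controls was lowest without a filter on low values (0.605) and without replicate 1 of the 3-day control (0.674), and highest with a filter of 50 (0.764). The control change in time, 3466 genes, was 5910 within replicates 1 and 2, 1665 when only the control libraries were fitted, 1440 at an adjusted p of 0.01, and from 897 to 3263 with 1 library left out. The difference, 1545 genes, was 3534 with array quality weights, 4090 within replicates 1 and 2, 3132 with a term for replicate 3, 521 at an adjusted p of 0.01, and from 646 to 1959 with 1 library left out. A stricter threshold lowers such counts by construction, and for the other settings the cause was not tested. With the replicate number as a block the counts were 7927 for the return, 5008 for the controls and 3211 for the difference. The labels state no pairing. The recovery and 3-day control groups share only numbers 1 and 2 with the others, and the deviation of replicate 1 from 2 correlated with r = 0.062 between the heat and recovery groups and r of at most 0.12 between any groups. The third replicates did share a deviation (r from 0.486 to 0.742), which the block and the term for replicate 3 take up. With reads thinned to equal depth, 6264 genes changed in the return. With 2 recovery libraries, the median half-width of the 95% interval of a change was 0.32 on the log2 scale, so smaller changes were often not detectable.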
